A study of Mus musculus with 24 samples.

Results

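The first day of differentiation was followed in cultured neural stem cells of wild-type mice, taken from the subventricular zone, the wall of the lateral ventricle where new neurons are made after birth. The comparison set 3 arrays of day 1 against 3 arrays of day 0, chosen by the genotype and day in the labels, out of 24 arrays in the series. Cultures of the same 3 mice, 818, 862 and 870, were measured on both days, and values by mouse are given in that order. On day 1 the cells had been moved to a serum-free medium that kept the N2 supplement and bovine pituitary extract. On day 0 they were dividing in a medium with 5% fetal bovine serum, 20 ng/ml epidermal growth factor (EGF) and 20 ng/ml fibroblast growth factor (FGF), besides N2 and 35 µg/ml pituitary extract. Serum, EGF and FGF were therefore removed together, and what each removal did cannot be told apart. The series holds no culture kept in the first medium for the same day. The removal therefore cannot be told apart from the medium change itself or from the added day in culture. The cells had been passaged 5 to 7 times, so they are an expanded culture and not the tissue itself. Cultures of 3 Mll1-deleted mice (489, 814 and 858), treated alike, serve below as a second genotype, and Mll1 (now Kmt2a) encodes a histone H3 lysine 4 methyltransferase. The question was which genes differ a day after the signals that keep these cells dividing are taken away.

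EGF and FGF bind receptor tyrosine kinases that signal through Ras and the kinase ERK. ERK induces D cyclins, which start the cell cycle, and also its own inhibitors of the Sprouty and Dusp families, so these inhibitors fall when the signal stops. Insulin-like signals and Akt keep FoxO transcription factors out of the nucleus, and growth signals together drive glucose uptake, glycolysis, ribosome making and lipid synthesis. Stem cells of the subventricular zone give rise through dividing progenitors to neuroblasts that become olfactory interneurons, and they can also form astrocytes and oligodendrocytes.

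Of 21072 genes tested, 5363 passed the test between day 1 and day 0, which is 25.5%. The threshold was an adjusted p of 0.05 in limma's moderated test, with the Benjamini-Hochberg adjustment over all genes, and genes below it are named as called. Among them 2455 were higher on day 1 (11.7%) and 2908 lower (13.8%), and these 2 shares are the background for every count of members below. The gene lists below were chosen with earlier results of these data known, so a count above these shares is no test of a list. The change exceeded 2-fold, or 1 on the log2 scale, for 563 higher and 561 lower genes, together 5.33% of all, and 4-fold for 65 and 77. In 40.1% of all genes the 3 values of day 1 lay all above or all below the 3 of day 0. That is the share over all genes for every remark that the days of a gene did not overlap. Among the 5363 called genes the days did not overlap in 5272, so in a called gene the remark adds little to the call. The median change of all genes was 0.016 on the log2 scale. Changes below are log2 differences, day 1 minus day 0, ± the standard error, with n = 3 mice on each day. The standard errors and p-values rest on the spread between mice within a group, pooled over all 8 groups of the series. They can therefore be larger or smaller than the spread of the 3 cultures shown would give. Without mouse 862 the count of called genes was 3554, without 870 it was 3629 and without 818 it was 3768.

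The cultures carried the markers of their label. Sox2, a stem cell transcription factor, had intensities of 3739, 3852 and 3608 on day 1, against 3012, 2764 and 3011 on day 0. Vim, the intermediate filament vimentin, was at 11336, 10500 and 11729 on day 1, against 12553, 11583 and 12108 on day 0. The 11 measured stem cell markers summed to between 35433 and 36908 on day 1 and between 37169 and 40542 on day 0. All 12 microglial markers lay below an intensity of 100 on day 1 and summed to between 484 and 519, against 420 to 482 on day 0. Of 10 markers of endothelium and pericytes 9 were below 100 on day 1, and the 10 summed to between 491 and 538, against 548 to 587 on day 0. Of 5 markers of fibroblasts and meninges 3 were below 100 on day 1, and the 5 summed to between 377 and 425, against 376 to 411 on day 0. The median probe set of the day 1 arrays was at 79.7, 81.7 and 82.7. Most probe sets therefore lay below 100 too, and these counts do not show that such cells were absent. Aif1, a defining marker of microglia, was near the floor of the arrays at 23.0, 26.1 and 24.8 on day 1 and at 22.8, 24.7 and 23.1 on day 0. Intensities come from whole cultures, so more cells of a type and more RNA per cell cannot be told apart in any change below.

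**Figure D1:**
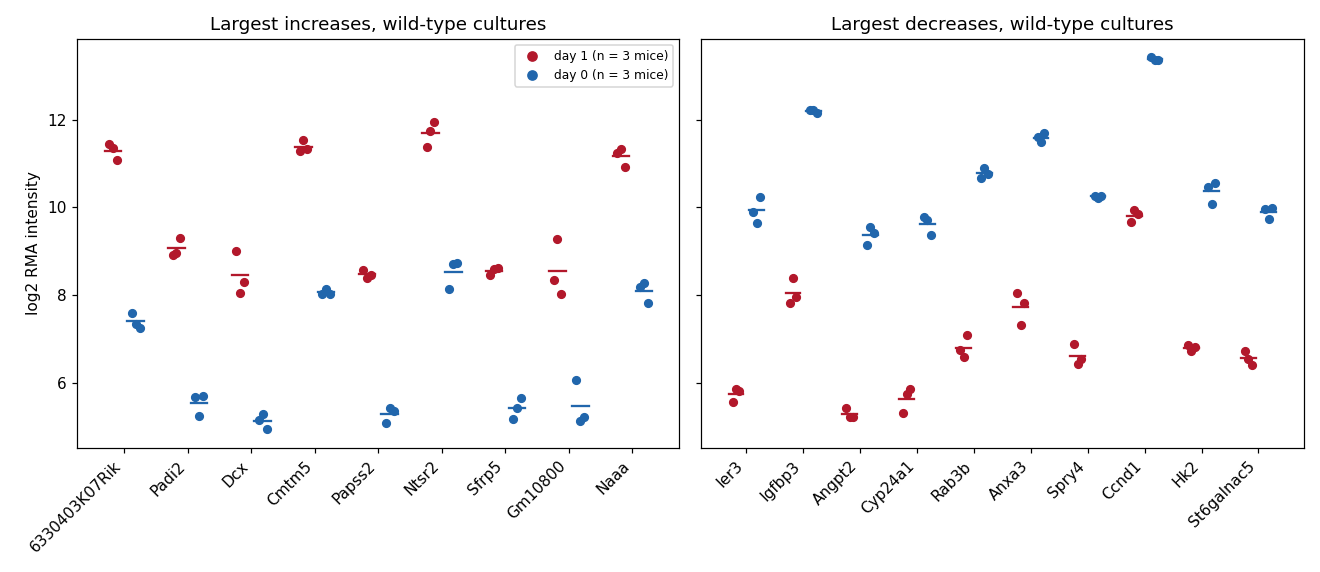
Log2 RMA intensity (vertical axis) of 9 of the 10 largest increases and of the 10 largest decreases among called genes whose days did not overlap. Each point is the culture of 1 mouse and each bar the mean of 3, with day 1 left of day 0 for each gene. The days stand apart in every gene by that choice, and Ier3 had the largest decrease (-4.19).

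Growth factor feedback genes and other ERK targets, together named the feedback list here, made up some of the largest decreases. Of 22 measured members, 17 were lower on day 1 and 1 was higher, with a median change of -1.053, against 0.016 for all genes. Without mouse 818, 11 were called lower. The 1 higher gene was Il17rd (0.44 ± 0.16), an inhibitor of FGF signalling, and its call was lost without any of the 3 mice and when array medians were aligned. Dusp6, the phosphatase that switches off ERK, had intensities of 180, 179 and 185 on day 1, against 1768, 1816 and 1786 on day 0. The 3 mice were nearly alike within each day, and the change was -3.30 ± 0.28 (adjusted p = 2.7e-08). Spry4, an inhibitor of receptor tyrosine kinase signalling, was at 118, 85.7 and 92.6 on day 1 and at 1228, 1197 and 1234 on day 0 (-3.64 ± 0.20, adjusted p = 3.2e-11). Its relative Spry1 fell by 2.70 ± 0.19 on the log2 scale. Etv4, a transcription factor induced by FGF, was at 64.1, 92.1 and 72.5 on day 1 and at 432, 471 and 455 on day 0 (-2.59 ± 0.23, adjusted p = 4.5e-08). Ier3, an early response gene, had 46.8, 57.7 and 56.3 on day 1, against 958, 795 and 1216 on day 0. That was the largest decrease among called genes whose days did not overlap (-4.19 ± 0.15, adjusted p = 4.2e-14).

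Receptors and ligands of these growth factors did not move one way. Of 21 members 4 were higher and 5 lower on day 1, with a median of 0.042. The higher genes were all receptors, namely Fgfr2 (0.63 ± 0.14), Erbb4 (1.54 ± 0.24), Pdgfra (1.61 ± 0.33) and Pdgfrb (1.88 ± 0.28). Pdgfra, the receptor that marks oligodendrocyte precursors, was at 272, 209 and 201 on day 1 and at 64.8, 82.8 and 74.2 on day 0. The receptor of EGF itself, Egfr, had 2016, 2360 and 2422 on day 1, against 1681, 1480 and 1465 on day 0. Its days did not overlap, but the change of 0.55 ± 0.23 did not pass the test (adjusted p = 0.08), although it did when the 6 arrays or the 12 wild-type arrays were fitted alone. Fgfr1 was at 0.08 ± 0.13. Among the ligands, 3 fell. Hbegf, a ligand of Egfr, had intensities of 312, 373 and 337 on day 1, against 1585, 1508 and 1534 on day 0 (-2.18 ± 0.28, adjusted p = 4.4e-06). Pdgfa fell by 1.28 ± 0.14 and Vegfa, the angiogenic factor, fell by 2.63 ± 0.19. The remaining lower genes were receptors, Fgfrl1 (-1.25 ± 0.18), which lacks a kinase domain, and Fgfr3 (-0.38 ± 0.14, adjusted p = 0.046), whose call was lost without any 1 of the mice (adjusted p of 0.14 to 0.27).

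Immediate early genes, which many stimuli switch on within minutes, were split after a day. Of 23 members 3 were higher and 7 lower, with a median of -0.027. Jun, a subunit of the AP-1 factor, had 614, 608 and 603 on day 1, against 1404, 1288 and 1337 on day 0 (-1.14 ± 0.11, adjusted p = 6.5e-08). Its partner Fos had 279, 292 and 304 on day 1, against 198, 200 and 176 on day 0, a change of the other sign (0.61 ± 0.19, adjusted p = 0.018). The call of Fos was lost without mouse 818 (adjusted p = 0.079), 862 (0.095) or 870 (0.17). Arc, known for its role at synapses, fell by 1.05 ± 0.11, and Klf6 fell by 1.10 ± 0.19. Egr1, a standard readout of ERK signalling, did not pass the test, with 183, 250 and 218 on day 1 and 292, 269 and 236 on day 0 (adjusted p = 0.26). Besides Fos, the higher genes were Nr4a3 (0.69 ± 0.15) and Btg2, which restrains proliferation (1.25 ± 0.17).

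Within the insulin-like growth factor (IGF) system, 3 of 14 members were higher and 7 lower, with a median of -0.335. The binding proteins, which hold IGF outside the cell, went opposite ways. Igfbp3 had 226, 333 and 249 on day 1, against 4799, 4785 and 4533 on day 0 (-4.15 ± 0.44, adjusted p = 3.7e-07). Igfbp5 had 5446, 4915 and 5172 on day 1, against 1051, 936 and 809 on day 0 (2.48 ± 0.17, adjusted p = 1.4e-09). Igfbp2 had 1927, 1651 and 2078 on day 1, against 7304, 8129 and 7579 on day 0 (-2.03 ± 0.48, adjusted p = 0.0027), and Igfbp4 fell by 1.75 ± 0.27. Thus Igfbp2, Igfbp3 and Igfbp4 were lower, and Igfbp5 was higher, in every culture of day 1 than in any of day 0. Igfbpl1, a related secreted protein, rose by 1.38 ± 0.14. Igfbp7, the remaining higher member, was at 0.95 ± 0.29 and lost its call without any 1 of the mice (adjusted p of 0.087 to 0.13). Insr, the insulin receptor, had 527, 481 and 428 on day 1, against 1462, 1306 and 1484 on day 0 (-1.57 ± 0.13, adjusted p = 2.6e-08). Irs2, an adaptor of that receptor, fell by 1.48 ± 0.16. The receptor Igf1r was at -0.22 ± 0.21 and did not pass the test.

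Targets of FoxO factors, which act when Akt signalling is low, were mostly higher. Of 20 members 12 were higher and 5 lower, with a median of 0.504. Txnip, an inhibitor of glucose uptake, had 2615, 2474 and 2630 on day 1, against 431, 426 and 262 on day 0 (2.82 ± 0.19, adjusted p = 1.3e-09). Pik3ip1, an inhibitor of the kinase PI3K, was at 469, 493 and 527 on day 1 and at 211, 229 and 207 on day 0 (1.20 ± 0.16, adjusted p = 5.6e-06). The stress-induced sestrins Sesn3 and Sesn1 rose by 0.96 ± 0.10 and 0.64 ± 0.12. The 5 lower members were Insr and Irs2, which FoxO factors can induce, together with Trib2 (-1.55 ± 0.15), Gadd45a (-0.67 ± 0.23) and Klf9 (-0.51 ± 0.15). The calls of Gadd45a (adjusted p of 0.062 to 0.28) and Klf9 (0.077 to 0.12) were lost without any 1 of the mice.

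**Figure D2:**
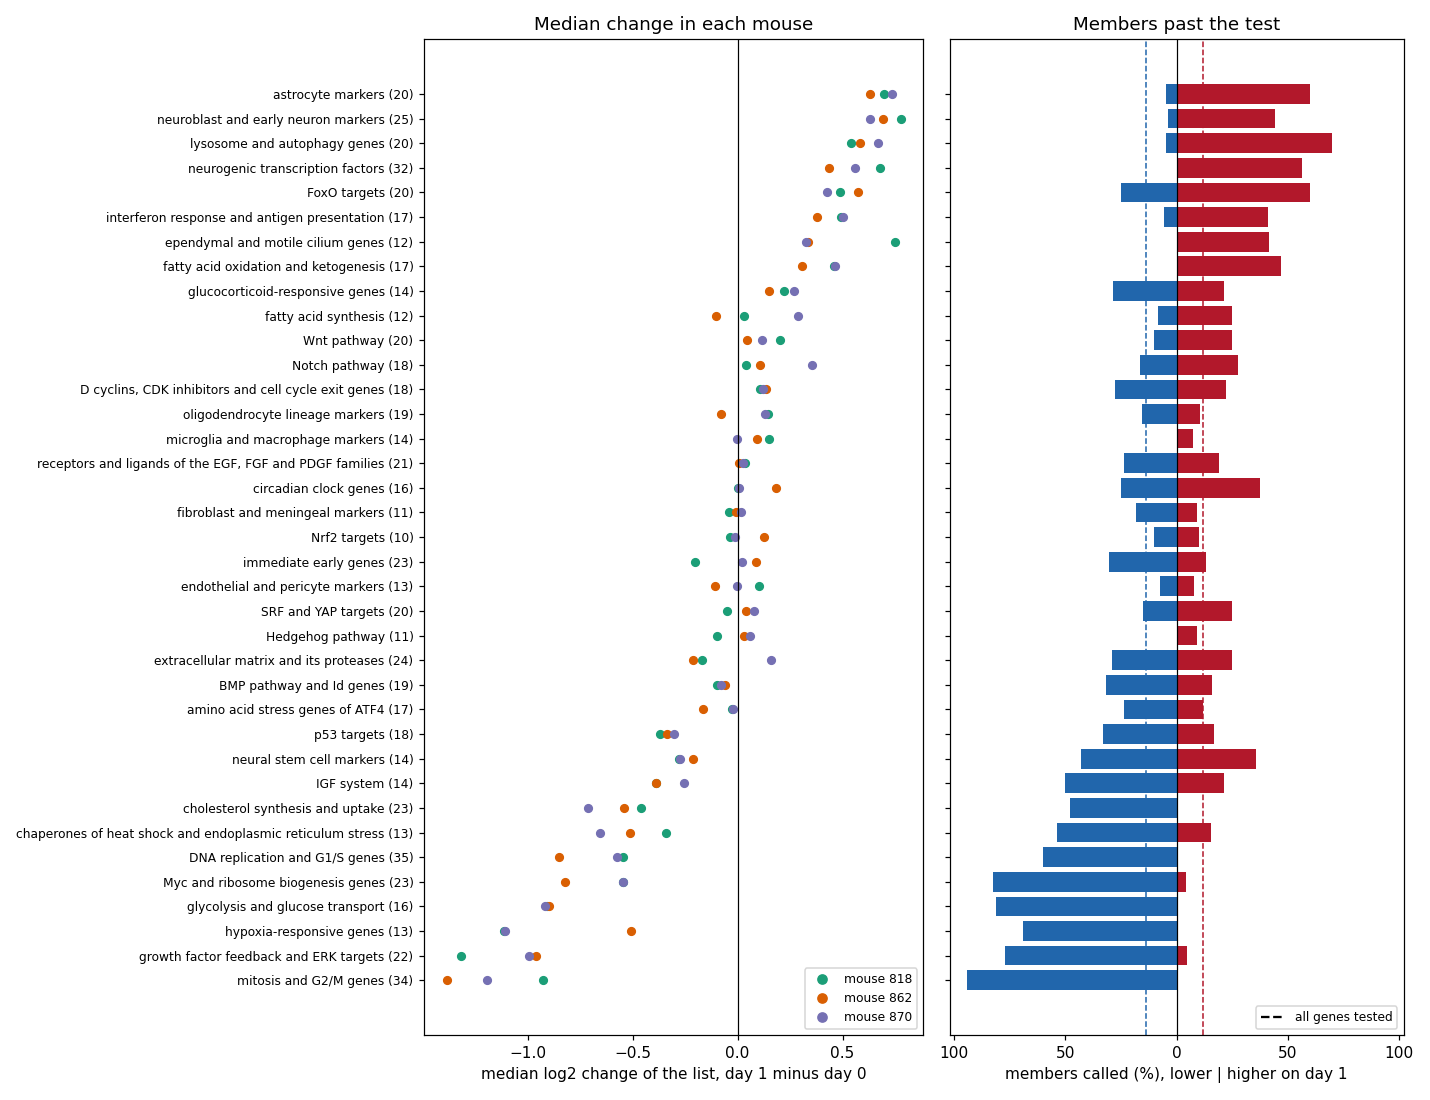
The 37 gene lists, with the number of measured members in parentheses, ordered by median change. Points on the left give each list's median log2 change, day 1 minus day 0, in each of the 3 mice; bars on the right give the percent of members called lower (blue) and higher (red) on day 1, with dashed lines at the share of all genes (13.8% and 11.7%). The mitosis list had the lowest median in mice 862 and 870 and the feedback list in mouse 818.

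The cell cycle genes fell at both its entry and its end, and the sizes differed. Ccnd1, the D cyclin induced by ERK, had 807, 977 and 920 on day 1, against 10989, 10558 and 10478 on day 0 (-3.57 ± 0.28, adjusted p = 8.7e-09). Its relative Ccnd2 stayed bright, with 10235, 8380 and 8805 on day 1, against 11843, 12341 and 11781 on day 0. That small change passed the test (-0.40 ± 0.13, adjusted p = 0.022), but not without mouse 862 (adjusted p = 0.23) or 870 (adjusted p = 0.11). Ccnd1 and Ccnd2 thus differed on day 1 although both were among the bright genes on day 0. Of the inhibitors, Cdkn1b was at 0.40 ± 0.12 and was no longer called when mouse 818 (adjusted p = 0.13) or mouse 862 (0.11) was left out. Cdkn1a, induced by p53 and by growth factors, had 848, 771 and 796 on day 1, against 1807, 1488 and 1527 on day 0 (-0.99 ± 0.26, adjusted p = 0.006), which no fit with a mouse left out called (adjusted p of 0.052 to 0.068). Rbl2, a retinoblastoma relative of resting cells, rose by 0.62 ± 0.11.

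Of 34 genes of mitosis and the G2 phase, 32 were lower and 0 higher, with a median of -1.182. Of 35 genes of DNA replication, 21 were lower and 0 higher, with a median of -0.623. Cdk1, the mitotic kinase, had 602, 404 and 479 on day 1, against 1431, 1292 and 1373 on day 0 (-1.48 ± 0.26, adjusted p = 0.00016). Cdc20, which starts the exit from mitosis, was at 416, 265 and 317 on day 1 and at 877, 851 and 827 on day 0 (-1.38 ± 0.23, adjusted p = 9e-05). In both genes mouse 862 had the lowest value on day 1, and its median over the mitosis list was also the lowest of the 3 mice. Ccnb2, a mitotic cyclin, was at 602, 356 and 453 on day 1 and at 1776, 1355 and 1689 on day 0 (-1.80 ± 0.26). The cells had not lost these transcripts by day 1, since Mki67, the common label of dividing cells, still had 1077, 652 and 820, against 1786, 1422 and 1655 on day 0. The change of Mki67 (-0.96 ± 0.31, adjusted p = 0.025) did not pass when mouse 862 (adjusted p = 0.13) or mouse 870 (0.14) was left out. For replication, Tk1, a thymidine kinase of S phase, had 118, 97.3 and 116 on day 1, against 330, 250 and 333 on day 0 (-1.46 ± 0.26, adjusted p = 0.00018). Rfc3, a subunit of the clamp loader, fell by 1.23 ± 0.22, while Mcm2 of the replicative helicase was at -0.58 ± 0.22 and missed the threshold (adjusted p = 0.062), but passed with the mouse as a block (adjusted p = 0.013). Counts of lower genes depended on single mice, with 21 of mitosis without mouse 870, and with 8 of replication without 862 and 11 without 870.

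Stretches upstream of 4 of these genes show letters that are known from cell cycle promoters. They come from RefSeq on GRCm38.p6 and are written on the strand of the gene. In the 250 bases before the gene start, TTTGAA or TTCGAA, the CHR element bound by the DREAM and MuvB complexes, was searched together with CCAAT, the site of NF-Y. The letters TTTCGCGC, TTTGGCGC and TTTCCCGC stand for E2F, and both strands were searched for all of them. Capitals mark a match on either strand, and the motifs were chosen after the values were seen. Ccnb2 (chr9:70421561-70421731, minus strand) and Cdc20 (chr4:118437344-118437406, minus strand) show CHR and CCAAT, and Mcm5 (chr8:75109346-75109377, plus strand) and Rfc3 (chr5:151651209-151651228, minus strand) show E2F, where the 2 matches of Mcm5 overlap.
Ccnb2: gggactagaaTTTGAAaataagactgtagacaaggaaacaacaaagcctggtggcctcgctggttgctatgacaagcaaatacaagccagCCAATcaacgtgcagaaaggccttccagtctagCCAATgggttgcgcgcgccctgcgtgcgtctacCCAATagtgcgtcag
Cdc20: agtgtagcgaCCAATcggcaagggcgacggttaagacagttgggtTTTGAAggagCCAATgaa
Mcm5: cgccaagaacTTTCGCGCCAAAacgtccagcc
Rfc3: cgtcgcacgcTTTCGCGCtc
A CHR match was found in 10 of 29 mitosis genes with a promoter in the table (34.5%), against 15.0% of all genes tested. Every motif share, here and for the hypoxia element below, covers only genes with a promoter there, 15363 of the 21072 tested. A CCAAT match was found in 20 of the 29 (69.0%), against 35.7%. These shares were also above those of all genes in the replication list, with CHR in 7 and CCAAT in 18 of 28 genes (64.3%), and in the hypoxia list, with CHR in 3 and CCAAT in 7 of 12 genes (58.3%), but not in the glycolysis list, with CHR in 0 and CCAAT in 4 of 15. An E2F match was found in 8 of 28 replication genes (28.6%), against 2.25% of all genes tested and 3.45% of the mitosis genes. Among all called genes that fell over 2-fold, 16.6% held CHR, 40.4% held CCAAT and 3.27% held E2F. Of the 4 genes shown, Mcm5 of the replicative helicase changed least (-0.72 ± 0.22, adjusted p = 0.019), which did not pass when mouse 862 (0.2) or mouse 870 (0.062) was left out. A match describes the letters only.

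Genes that build up the cell were lower as well. Among 23 genes of Myc and ribosome biogenesis, 19 were lower and 1 higher, with a median of -0.634, and 12 were called lower without mouse 862. Myc, a transcription factor that drives this program, had 245, 281 and 269 on day 1, against 537, 515 and 510 on day 0 (-0.98 ± 0.16, adjusted p = 7.6e-05). The 1 higher gene was its paralogue Mycn, with 580, 403 and 559 on day 1, against 135, 117 and 115 on day 0 (2.06 ± 0.22, adjusted p = 4.5e-07). On day 1 all 3 cultures therefore had more Mycn and less Myc than any culture of day 0. Nop2, which methylates ribosomal RNA, fell by 1.02 ± 0.12 and Rrp9, of the small nucleolar ribonucleoproteins, fell by 0.96 ± 0.12. Of 13 chaperones 7 were lower and 2 higher. Hspd1, the mitochondrial chaperonin, fell by 1.25 ± 0.16 and Hspa5, the main chaperone of the endoplasmic reticulum, fell by 0.76 ± 0.12. Dnajb9, a co-chaperone of the same compartment, moved the other way, with 750, 1056 and 718 on day 1 and 310, 345 and 325 on day 0 (1.34 ± 0.17).

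Cholesterol genes fell in 11 of 23 members and rose in 0, with a median of -0.527. Insig1, which holds back the activation of the SREBP factors and is itself their target, had 789, 681 and 654 on day 1, against 1731, 1696 and 1986 on day 0 (-1.35 ± 0.15, adjusted p = 6.8e-07). Stard4, a cholesterol carrier of the cytosol, was at 121, 119 and 91.0 on day 1 and at 325, 256 and 298 on day 0 (-1.42 ± 0.26, adjusted p = 0.00022). All 3 cultures of day 1 lay below those of day 0 in both genes. Genes of fatty acid synthesis did not follow, since 3 of 12 were higher and 1 lower, with a median of 0.119, and 0 were called lower without mouse 870. The desaturase Fads2 was at 8282, 8992 and 8500 on day 1 and at 4682, 4622 and 4640 on day 0 (0.89 ± 0.15), while Fasn, the fatty acid synthase, was at 0.12 ± 0.14. Of 17 amino acid genes that ATF4 controls 2 were higher, 4 were lower and 11 did not pass the test, with a median of -0.130. Among them Mthfd2 of mitochondrial folate metabolism fell by 1.71 ± 0.22 and the asparagine synthetase Asns fell by 1.64 ± 0.34, and the other lower genes were Slc7a1 (-1.31 ± 0.18), an amino acid carrier, and Shmt2 (-0.73 ± 0.15). Phgdh, the first enzyme of serine synthesis, was at 0.61 ± 0.16, which did not pass when mouse 818 (adjusted p = 0.056) or mouse 870 (0.064) was left out. The cystine carrier Slc7a11 had 310, 620 and 330 on day 1, against 183, 210 and 160 on day 0 (1.12 ± 0.38, adjusted p = 0.034). Mouse 862 was the highest on both days, and that call was lost without any 1 of the mice (adjusted p of 0.081 to 0.12).

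Glucose genes were among the clearest decreases. Of 16 members of glycolysis and glucose transport 13 were lower and 0 higher, with a median of -0.900. Hk2, the hexokinase of growing cells that traps glucose, had 116, 105 and 113 on day 1, against 1403, 1084 and 1508 on day 0 (-3.57 ± 0.22, adjusted p = 4.4e-10). The glucose transporter Slc2a1 had 780, 808 and 816 on day 1, against 2774, 2249 and 3278 on day 0 (-1.77 ± 0.17, adjusted p = 1e-07). Slc2a3, another transporter, had 221, 192 and 238 on day 1, against 1049, 801 and 1231 on day 0 (-2.23 ± 0.20, adjusted p = 5e-08). All 3 genes shared an order on day 0, with mouse 870 highest and 862 lowest, while the day 1 values of Hk2 and Slc2a1 were close together. Ldha, which makes lactate, had 3843, 2925 and 4063 on day 1, against 9560, 9279 and 9266 on day 0 (-1.39 ± 0.12). The 3 members that did not pass the test were Pfkm, Pfkfb4 and Pfkfb3, of which Pfkfb3 (-0.47 ± 0.20) passed when the 6 arrays or the 12 wild-type arrays were fitted alone.

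Genes known from the response to low oxygen were lower with them, 9 of 13 with 0 higher and a median of -0.943. Adm, the peptide adrenomedullin, had 165, 164 and 190 on day 1, against 1456, 1263 and 1730 on day 0 (-3.09 ± 0.37, adjusted p = 1.8e-06). Vegfa, which belongs to this list as well, had 262, 245 and 267 on day 1, against 1687, 1283 and 1867 on day 0. P4ha2, a collagen prolyl hydroxylase, fell by 1.38 ± 0.14, the mitophagy receptor Bnip3 fell by 1.24 ± 0.16, and Egln1, the oxygen sensor that marks HIF for degradation, fell by 0.94 ± 0.12. Mouse 862 had the smallest median change over this list, as the plot of the lists shows. The oxygen level of the cultures is not given in the labels.

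For the hypoxia element only the core letters ACGTG were searched, and other forms of the element were not. The stretches below show these letters in the promoters of 3 of these genes and of Slc2a1 from the glucose list, with the match in capitals. They are again from RefSeq on GRCm38.p6, on the strand of the gene, for P4ha2 (chr11:54100836-54100860, plus strand), Bnip3 (chr7:138909599-138909624, minus strand), Egln1 (chr8:124949308-124949332, minus strand) and Slc2a1 (chr4:119108699-119108723, plus strand).
P4ha2: tgcatcgcatACGTGcagcgcgtgg
Bnip3: gcacgcgccgCACGTGccacacgctc
Egln1: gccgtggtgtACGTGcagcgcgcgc
Slc2a1: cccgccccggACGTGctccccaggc
In Bnip3 the match reads the same on both strands, and those letters, CACGTG, are also the E-box of Myc and other factors. ACGTG stood on either strand in 8 of 12 hypoxia genes with a promoter in the table (66.7%) and in 6 of 15 glycolysis genes (40.0%), against 18.4% of all genes tested and 31.0% of 29 mitosis genes. Among called genes that rose over 2-fold it stood in 18.8%, and among those that fell over 2-fold in 21.5%.

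**Figure D3:**
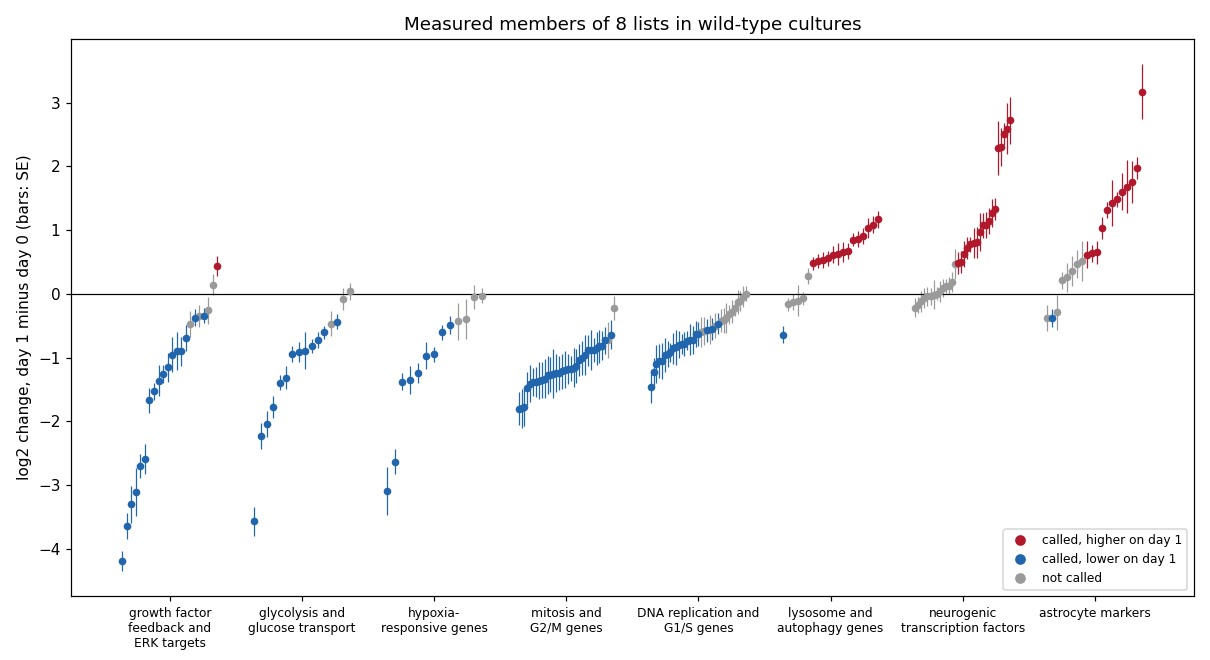
Log2 change, day 1 minus day 0, of every measured member of 8 lists, each list sorted from its lowest to its highest member, with bars for the standard error. Red and blue points passed the test as higher or lower on day 1 and grey points did not; the mitosis genes lie in a narrow range below 0, whereas the feedback, glycolysis and hypoxia lists reach beyond -3.

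Of 17 genes of fatty acid oxidation and ketogenesis 8 were higher and 0 lower, with a median of 0.381, and 4 were called without mouse 818 and 5 without 870. Pdk4, which blocks the entry of pyruvate into the citric acid cycle, rose by 1.26 ± 0.24, and Cpt1a, the carrier that admits fatty acids to mitochondria, by 0.56 ± 0.12. Ucp2, a carrier of the inner mitochondrial membrane, had 267, 200 and 331 on day 1, against 84.1, 76.3 and 78.8 on day 0 (1.71 ± 0.25). Of 20 lysosome and autophagy genes 14 were higher and 1, Gla, was lower, with a median of 0.587. The protease Ctsb had 5365, 4672 and 4966 on day 1, against 2304, 2224 and 2133 on day 0 (1.17 ± 0.14, adjusted p = 1.5e-06). Hexa, a lysosomal hexosaminidase, rose by 1.09 ± 0.13 and Ulk1, the kinase that starts autophagy, by 0.91 ± 0.12.

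Neurogenic transcription factors were called higher in 18 of 32 members and lower in 0, with a median of 0.561, and 5 members were near the floor on both days. Insm1, a zinc finger factor of progenitors that become neurons, had 717, 617 and 544 on day 1, against 113, 125 and 92.3 on day 0 (2.51 ± 0.17, adjusted p = 1.3e-09). Myt1, which favours neuronal fate, was at 320, 241 and 252 on day 1 and at 35.8, 47.0 and 40.2 on day 0 (2.72 ± 0.37, adjusted p = 7.9e-06). Dlx2, an interneuron homeobox factor, had 1641, 997 and 1230 on day 1, against 236, 250 and 283 on day 0 (2.30 ± 0.30). In all 3 genes mouse 818 was the highest on day 1. Pou3f4, named Brn4 in the series title, had 802, 604 and 662 on day 1, against 335, 329 and 313 on day 0 (1.07 ± 0.19, adjusted p = 0.00023).

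Of 25 markers of neuroblasts and early neurons 11 were higher and 1 lower, with a median of 0.637, and 2 were called lower without mouse 818. Dcx, the microtubule protein doublecortin, had 513, 262 and 314 on day 1, against 35.4, 38.8 and 30.6 on day 0 (3.33 ± 0.55, adjusted p = 9.2e-05). Tubb3, the neuronal tubulin, had 873, 459 and 571 on day 1, against 247, 247 and 175 on day 0 (1.47 ± 0.34, adjusted p = 0.0022). Mouse 818 stood above the other two in both genes on day 1. The microtubule protein Mapt did not share that order, with 409, 510 and 443 on day 1 and 103, 110 and 107 on day 0 (2.08 ± 0.32). The lower gene was Gap43, a growth cone protein, with 641, 520 and 535 on day 1 and 1623, 1431 and 1440 on day 0 (-1.41 ± 0.22, adjusted p = 5e-05). Stmn2, another growth cone protein, was at -0.64 ± 0.42 and did not pass the test, although it did with the 6 arrays alone (adjusted p = 0.007). Of the 8 fixed neuroblast markers only 2, Dcx and Tubb3, were called higher, and 0 were called lower. The 8 summed to between 2961 and 4298 on day 1, against 2353 to 2511 on day 0.

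Astrocyte markers were higher in 12 of 20 members and lower in 1, Fgfr3, described above, with a median of 0.643. Their fixed markers summed to between 29316 and 30671 on day 1, against 13913 to 15907 on day 0. Ntsr2, a neurotensin receptor of astrocytes, had 2671, 3426 and 3957 on day 1, against 280, 419 and 423 on day 0 (3.17 ± 0.43, adjusted p = 9.1e-06). Gja1, the gap junction protein connexin 43, had 9175, 8931 and 8363 on day 1, against 3390, 3093 and 3004 on day 0 (1.48 ± 0.11, adjusted p = 3.7e-09). Slc39a12, a zinc transporter, rose by 1.97 ± 0.17. Gfap, the astrocyte filament that subventricular stem cells carry too, had 7756, 7312 and 6412 on day 1, against 2605, 2671 and 1577 on day 0 (1.68 ± 0.41, adjusted p = 0.0036). Its call was lost without mouse 870 (adjusted p = 0.052), the dimmest culture on both days.

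Within the oligodendrocyte lineage 2 of 19 members were higher and 3 lower, with a median of 0.067. Of its transcription factors 3 fell, with Olig2 at 391, 553 and 481 on day 1 and 1561, 1621 and 1503 on day 0 (-1.73 ± 0.17, adjusted p = 1e-07). Olig1 fell by 1.75 ± 0.18 and Nkx2-2 fell by 0.99 ± 0.20. Sox10 (0.29 ± 0.25) and Myrf (0.04 ± 0.22), transcription factors of the same lineage, did not pass the test. Pdgfra, described above, was among the higher members, and without any 1 of the mice 1 rather than 2 members were called higher.

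Stem cell markers were split, 5 of 14 higher and 6 lower, and 3 rather than 5 were called higher without mouse 818 or 862. Nes, the intermediate filament nestin, had 824, 798 and 826 on day 1, against 2078, 2080 and 1795 on day 0 (-1.28 ± 0.19, adjusted p = 3.1e-05). Tnc, the matrix protein tenascin C of the niche, fell by 2.27 ± 0.45. Sox9, a transcription factor of stem cells and astrocytes, had 3361, 4079 and 3458 on day 1, against 2213, 1710 and 1810 on day 0 (0.93 ± 0.17, adjusted p = 0.00025). Prom1, the membrane protein prominin, rose by 0.98 ± 0.15. Sox2, whose values are given above, rose by 0.35 ± 0.09, which did not pass when mouse 862 was left out (adjusted p = 0.098). Of 12 ependymal and motile cilium genes 5 were higher and 0 lower, with a median of 0.434. Of the 4 fixed ependymal markers 3 were measured, without Foxj1, and 0 of them were called. On day 1, 2 of these 3 lay below an intensity of 100, and the 3 summed to between 246 and 267, against 201 to 229 on day 0. The axonemal dynein Dnah5 had 222, 170 and 175 on day 1, against 52.1, 59.3 and 50.3 on day 0 (1.80 ± 0.18, adjusted p = 2.6e-07).

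Pathways that govern the choice between stem cell and neuron changed within themselves. In the Notch pathway 5 of 18 members were higher and 3 lower, with a median of 0.102. The ligand Dll1 had 358, 355 and 360 on day 1, against 127, 106 and 114 on day 0 (1.63 ± 0.20, adjusted p = 2.6e-06). The other ligand named by the rule, Jag1, had 127, 96.4 and 98.5 on day 1, against 675, 840 and 768 on day 0 (-2.83 ± 0.31, adjusted p = 6.6e-07). Among receptors, Notch2 rose by 1.62 ± 0.18 and Notch1 was at 0.09 ± 0.14. Among targets, Hes1, a repressor of proneural genes, had 141, 178 and 195 on day 1, against 594, 585 and 669 on day 0 (-1.85 ± 0.21). Hes5, the more Notch-dependent target in neural stem cells, did not pass the test (0.27 ± 0.26).

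The Id proteins, inhibitors of proneural factors that BMP and serum induce, also split. Id1 had 196, 208 and 194 on day 1, against 770, 630 and 579 on day 0 (-1.72 ± 0.34, adjusted p = 0.00064). Id3 had 214, 132 and 177 on day 1, against 1000, 783 and 777 on day 0 (-2.31 ± 0.39, adjusted p = 0.00011). Id4 had 1909, 1989 and 1861 on day 1, against 648, 680 and 505 on day 0 (1.66 ± 0.20, adjusted p = 2.5e-06). Id1 and Id3 were thus dimmer, and Id4 brighter, in every culture of day 1 than in any of day 0. Id2 fell by 1.08 ± 0.29, which did not pass when mouse 870 was left out (adjusted p = 0.086). Of all 19 BMP and Id genes 3 were higher and 6 lower, and 3 were called lower without mouse 870. The BMP ligand Bmp6 rose by 2.09 ± 0.28, and Bambi, a decoy receptor, fell by 0.76 ± 0.15. In the Wnt pathway 5 of 20 members were higher and 2 lower, with 3 higher without mouse 862 or 870. Its common readout Axin2 was at 0.08 ± 0.11. Of the Hedgehog pathway Gli2 rose by 0.84 ± 0.14, and the readouts Gli1 (-0.06 ± 0.17) and Ptch1 (-0.07 ± 0.22) did not pass the test.

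Matrix genes and targets of SRF and YAP, which answer to serum and to cell shape, had members at both ends. Of 24 matrix genes 6 were higher and 7 lower, falling to 2 and 3 without mouse 818 or 862. Adamts1, a secreted protease, had 156, 169 and 139 on day 1, against 1295, 1085 and 1168 on day 0 (-2.93 ± 0.21, adjusted p = 1.7e-09). Timp3, an inhibitor of such proteases, rose by 1.45 ± 0.19. Of 20 targets of SRF and YAP 5 were higher and 3 lower. Without mouse 818 these were 3 and 0, without 862 they were 2 and 0, and without 870 they were 1 and 0. Thbs1, the matricellular protein thrombospondin, had 764, 787 and 1040 on day 1, against 200, 163 and 156 on day 0 (2.31 ± 0.40, adjusted p = 0.00015). Ccn2, a standard YAP target, was at -0.03 ± 0.36.

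The other genes with the largest changes belong to varied processes. Among the decreases, Angpt2, a ligand of vessel growth, had 42.8, 36.8 and 37.0 on day 1, against 561, 751 and 677 on day 0 (-4.09 ± 0.21, adjusted p = 2.1e-11). Cyp24a1, the enzyme that breaks down active vitamin D, had 39.3, 53.1 and 58.1 on day 1, against 884, 842 and 658 on day 0 (-3.99 ± 0.29, adjusted p = 2.2e-09). Rab3b, of vesicle release, was at 107, 95.4 and 135 on day 1 and at 1634, 1902 and 1738 on day 0. Anxa3, an annexin, fell by 3.86 ± 0.49, and St6galnac5, a sialyltransferase of gangliosides, fell by 3.34 ± 0.35. Among the increases, Padi2, which converts arginine to citrulline in proteins, had 481, 500 and 634 on day 1, against 50.6, 37.9 and 51.8 on day 0 (3.53 ± 0.43). Naaa, a lysosomal amidase of fatty acid ethanolamides, was at 2422, 2589 and 1941 on day 1 and at 292, 308 and 226 on day 0 (3.08 ± 0.22). Papss2, which makes the sulfate donor of the cell, rose by 3.19 ± 0.43, the Wnt antagonist Sfrp5 by 3.13 ± 0.32 and Cmtm5 by 3.33 ± 0.35. 6330403K07Rik rose by 3.90 ± 0.39 and Gm10800 by 3.09 ± 0.38, and no role is given here for these 2.

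Some further lists are given mainly by their counts. Interferon and antigen presentation genes were higher in 7 of 17 members and lower in 1, with a median of 0.479. The lower gene, Bst2, was not called without any 1 of the mice (adjusted p of 0.061 to 0.17). Irf9, of the factor that answers interferon, had 214, 181 and 226 on day 1, against 147, 124 and 128 on day 0 (0.64 ± 0.11), and B2m was at 0.28 ± 0.30. Of 18 p53 targets 3 were higher and 6 lower, and without 1 of the mice 2 or 3 were called lower. Of 16 clock genes 6 were higher and 4 lower, with 3 higher without mouse 862 or 870 and 2 lower without 870, and Per2 was at -0.22 ± 0.12. Of 14 glucocorticoid-responsive genes 3 were higher and 4 lower, with a median of 0.200. The higher ones were the metallothioneins Mt1 (1.01 ± 0.18) and Mt2 (1.03 ± 0.16) and Pdk4. The lower ones were Dusp1 (-1.15 ± 0.25), Fkbp5 (-0.83 ± 0.20), Errfi1 (-0.34 ± 0.12) and Klf9, of which Fkbp5 was not called without mouse 862 (adjusted p = 0.077) and Errfi1 not without any 1 of the mice (adjusted p of 0.13 to 0.19). Of 170 microRNA genes on the array 10 were higher and 2 lower, and 79 were near the floor on both days. Kmt2a had 547, 504 and 407 on day 1, against 428, 417 and 326 on day 0, and passed the test only with the mouse as a block (0.32 ± 0.14, adjusted p = 0.1 without it).

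The state of day 1 was not always that of later days, and the changes from day 0 to days 1, 2 and 4 are set side by side here. They share the day 0 arrays, so their likeness is no separate evidence, and the genes of the time course plot were chosen after their values were seen. Hk2 stayed low, with changes of -3.57 on day 1, -3.56 on day 2 and -3.38 on day 4, whereas Slc2a1 was at -1.77, -0.36 and 0.26. Ccnd1 was at -3.57, -3.61 and -3.22. Mki67 was at -0.96, -1.01 and -4.55, so that most of its decrease by day 4 lay after day 2. Dusp4, another phosphatase of the ERK family, was at -3.10, -0.61 and 0.48. Insm1 was at 2.51, 2.12 and 0.20 and Dll1 at 1.63, 0.27 and -0.09, both highest on day 1. Btg2 was at 1.25, -0.14 and -0.20. Egfr had the values 0.55, -0.90 and -1.47, with opposite signs on day 1 and later. Dcx was at 3.33, 6.0 and 5.31, highest on day 2. The median over the mitosis list was -1.182, -1.295 and -2.892 on these days, and that over neuroblast markers 0.637, 1.407 and 1.303.

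**Figure D4:**
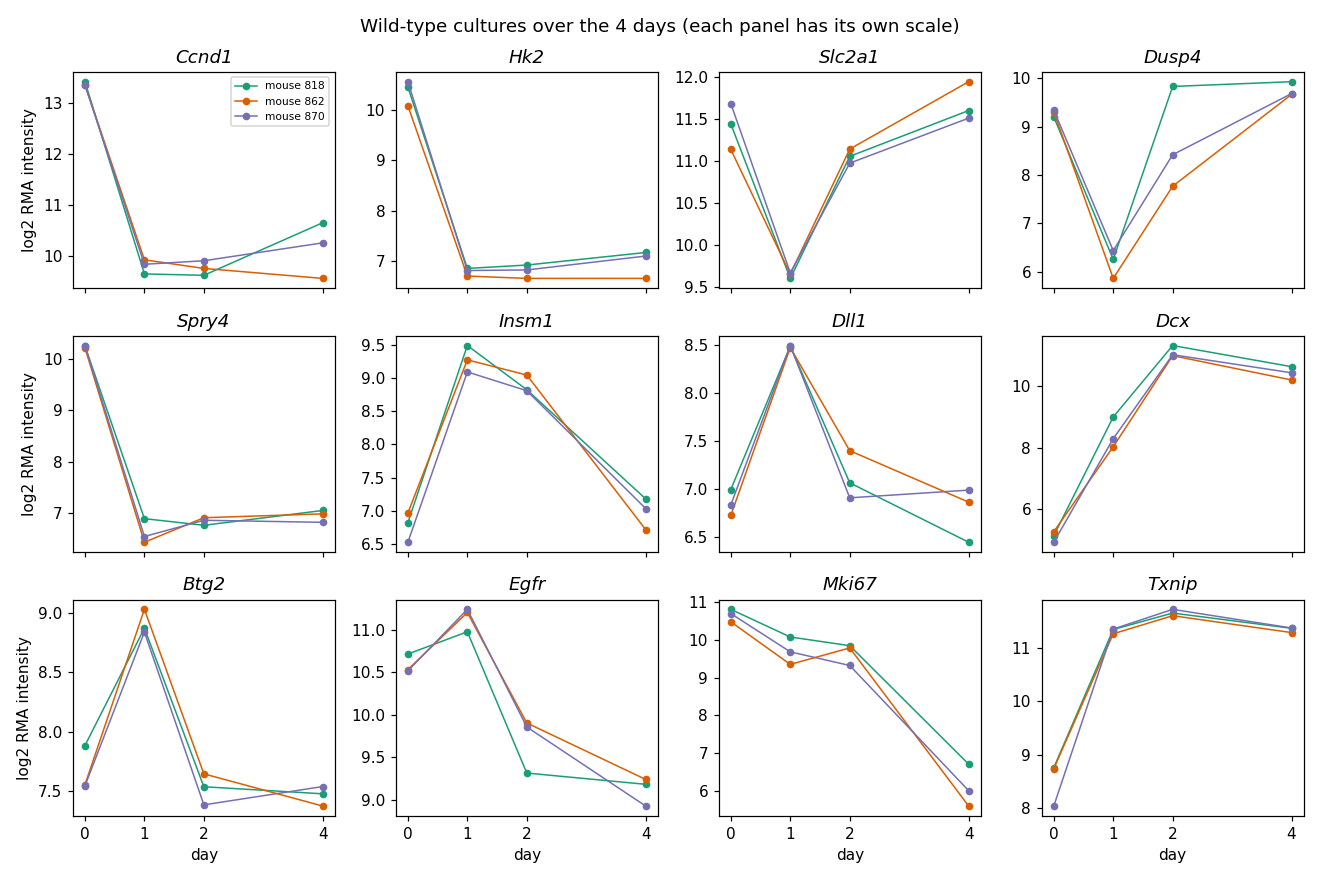
Log2 RMA intensity (vertical axis) of 12 genes in wild-type cultures against the day of sampling, with 1 line for each mouse and a separate scale in each panel. Hk2 and Ccnd1 stay low after day 1, Slc2a1 and Dusp4 return, Dll1 and Btg2 are highest on day 1, and Dcx goes on to day 2.

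Whether this response was the same without Mll1 was tested as the difference between the genotypes in the change from day 0 to day 1. The difference passed the test for 513 of 21072 genes (2.43%), with the wild-type change more positive in 243 (1.15%) and more negative in 270 (1.28%). Of the 16 glycolysis genes, 8 had a more negative change in wild-type cultures and 0 a more positive one. Of 13 hypoxia genes the counts were 7 and 0, and of 22 members of the feedback list 6 and 0. These lists and the mitosis list had the lowest wild-type medians of the 37 lists. Their wild-type change is a part of the tested difference, so negative differences were favoured by the choice of lists. Their counts therefore cannot be set against the shares of all genes. Median changes were -0.900 in wild-type and -0.304 in Mll1-deleted cultures for glycolysis, -0.943 and -0.168 for hypoxia, and -1.182 and -0.482 for mitosis, where 1 of 34 genes passed the test of the difference. These counts rested on single mice. The glycolysis genes with the more negative wild-type change numbered 2 without wild-type mouse 818 or 870 or the Mll1-deleted mouse 489, 3 without 814, 4 without 862 and 8 without 858. The hypoxia genes numbered 1 without 870 or 489, 2 without 818, 5 without 814, 6 without 862 and 9 without 858. Those of the feedback list numbered 3 without 818, 870 or 489, 5 without 862 or 814 and 8 without 858. Over all genes the count was 159 without 870, 165 without 489, 179 without 818, 193 without 814, 219 without 862 and 1451 without 858. Of the mitosis genes 20 passed without 858 and 0 without any other 1 of the mice. With the mouse as a block 1031 genes passed, and with the 12 arrays of days 0 and 1 alone 297.

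Part of these differences stood in the levels of day 0. On day 1 Vegfa had 262, 245 and 267 in wild-type cultures, close to 241, 248 and 252 in Mll1-deleted ones. On day 0 it had 1687, 1283 and 1867 in wild-type cultures, against 374, 351 and 577 in Mll1-deleted ones, so the change was -2.63 in wild-type and -0.78 in Mll1-deleted cultures (difference -1.85 ± 0.27, adjusted p = 0.00043). Hk2 behaved alike, with 111, 218 and 105 on day 1 and 348, 577 and 526 on day 0 in Mll1-deleted cultures (difference -1.77 ± 0.32, adjusted p = 0.0026, or 0.051 without mouse 870). Ier3 had 94.1, 86.8 and 80.3 on day 1 and 360, 346 and 287 on day 0 there (difference -2.27 ± 0.22, adjusted p = 8.2e-06). In Ier3 and in the 3 genes that follow, the genotypes did not overlap on either day, and their order was turned round between the days. All of them passed the test of the difference, which favours such a pattern, and its share among all genes was not counted. Olig2 had 998, 1123 and 963 on day 1 and 801, 751 and 1162 on day 0 in Mll1-deleted cultures, and the change was -1.73 in wild-type and 0.21 in Mll1-deleted cultures (difference -1.94 ± 0.23, adjusted p = 7e-05). Id4 had 804, 797 and 1234 on day 1 and 1068, 1001 and 1198 on day 0 there (difference 1.89 ± 0.29, adjusted p = 0.00065). Txnip had 1709, 1283 and 1932 on day 1 and 830, 944 and 684 on day 0 there (difference 1.83 ± 0.27, adjusted p = 0.00043). Cyp24a1 and Ntsr2 changed by -3.44 and 2.89 in Mll1-deleted cultures, and their differences from the wild-type change did not pass the test (-0.55 ± 0.41 and 0.28 ± 0.61).

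**Figure D5:**
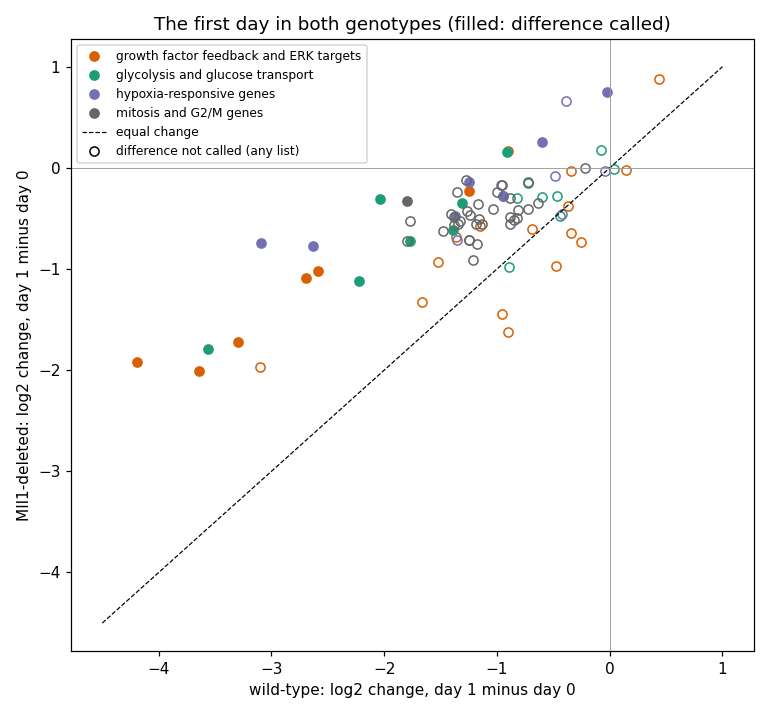
Log2 change, day 1 minus day 0, in wild-type cultures (horizontal axis) and in Mll1-deleted cultures (vertical axis) for the members of 4 lists, each point 1 gene. Filled points passed the test of the difference between the genotypes and the dashed line marks equal changes. The filled points lie above the line, where the wild-type decrease was the larger or the Mll1-deleted gene was higher on day 1. The 4 lists had the lowest wild-type medians, and that choice favours points above the line.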

How the data were processed

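RNA of cultured subventricular zone cells was hybridised, after biotin labelling, to Affymetrix arrays, with 1 array per mouse and day. The authors made 1 intensity per probe set with RMA in Affymetrix Power Tools and named genome build mm9, per the submitters' processing notes (no versions are stated). As a rule RMA includes background correction and quantile normalisation, so a change is relative to the other genes of an array. The deposited intensity values are linear, from 3.48 to 30298 over 28350 probe sets, and log2 was taken here. A deposited companion table gives symbols and a cross-hybridisation score, whose making and meaning are not given in the sources used here. The 22232 probe sets with 1 symbol were used, 2127 symbols were updated through RefSeq, and 25 symbols had been turned into dates. For 576 genes with several probe sets the brightest one stood for the gene, which left 21072 genes. Probe sets with several symbols (2980) or no symbol (3138) were counted apart.

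Changes came from limma 3.58.1 in R 4.3.3, with 8 group means fitted to all 24 arrays, so that the spread is shared by all groups. The difference between genotypes was a contrast of the same fit. Calls were made below an adjusted p of 0.05 (Benjamini-Hochberg, 2-sided). A gene was near the floor where its mean lay under the first quartile of intensity, averaged over the 3 arrays of the day, 25.3 on day 1 and 24.6 on day 0, and the number of arrays limits the precision. The mouse pairs the days through its ID in the labels. Deviations from the day means correlated with r of 0.375, 0.220 and 0.329 within a mouse and between -0.331 and 0.0960 across mice, and a fit with the mouse as a block was an alternative.

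Members and the 37 gene lists were chosen with earlier results of these data known. The rule for named genes covered the 10 largest changes each way among called genes whose days did not overlap, the first 3 members of each list and up to 4 called members with the smallest p, up to 6 called microRNA genes, Pou3f4 and Kmt2a. A few genes that the rule covers are not reported here. Other genes, such as Il17rd, Dusp4, Igfbp2, Igfbp4, Errfi1, Myrf, Phgdh, Pdgfrl, Twist1, Erbb4, Pdgfrb, Nr4a3, Igfbp7, Fgfr3, Gadd45a, Klf9, Bst2, Gla, Pfkm, Pfkfb3 and Pfkfb4, were named after their values were seen, as were the intensity limit of 100 and the motifs. On simulated data the steps recovered 8% of 1.25-fold, 40% of 1.5-fold, 92% of 2-fold and 100% of 4-fold changes, with 50 changed genes of each size among 21072, and 10 of 130 calls were false. The real data gave 5363 calls, and no mouse effect was simulated, so these shares need not hold for the real data. Figures were drawn with matplotlib 3.10.9.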

Additional observations from a re-analysis of the deposited data

Results flagged for a closer look

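The change from day 0 to day 1 differed between the genotypes by the test of the difference itself for 513 of 21072 genes. Of the 169 genes named here, 50 were among them, and 19 of these kept the call under all 14 alternatives of that test, which include leaving out each of the 6 mice. Many named genes were chosen by their wild-type change, which is a part of the tested difference. The share of 50 in 169 therefore cannot be set against that of all genes. The values that follow are the wild-type change minus the Mll1-deleted change on the log2 scale, each with 3 mice per genotype, and a negative value means a lower change in wild-type cultures. Among the 19 the difference was negative for Ier3 (-2.27), Spry4 (-1.63), Spry1 (-1.61), Arc (-1.13), Jun (-1.07), Vegfa (-1.85), Olig1 (-2.15), Olig2 (-1.94), Trib2 (-1.33), Rab3b (-3.66), Adamts1 (-1.69) and Prrx1 (-1.17). It was positive for Igfbp5 (1.71), Igfbpl1 (1.02), Txnip (1.83), Id4 (1.89), Prom1 (1.30), Gja1 (1.00) and Naaa (1.98).

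The other 31 lost the call when certain mice were left out, of the wild-type 818, 862 and 870 and the Mll1-deleted 489, 814 and 858, and the adjusted p without them is given after each value. Irf9 (0.61, adjusted p of 0.056 to 0.27) lost it without any 1 of the 6. Without any 1 but 858, it was lost by Ccnb2 (-1.47, 0.091 to 0.3), Dusp6 (-1.58, 0.1 to 0.29), Egfr (-1.49, 0.053 to 0.097), Igfbp3 (-2.48, 0.11 to 0.2), Insr (-0.79, 0.071 to 0.22), Sfrp5 (2.24, 0.056 to 0.079) and Tubb3 (1.86, 0.075 to 0.33). Slc2a3 (-1.11, 0.077 to 0.2) lost it without any 1 but 814. Without 489, 818, 862 or 870 it was lost by Adm (-2.34, 0.062 to 0.12), Myc (-0.85, 0.15 to 0.27), Pdgfrb (1.66, 0.098 to 0.2) and Thbs1 (2.81, 0.051 to 0.099). Without 489, 814, 818 or 870 it was lost by Egln1 (-0.66, 0.15 to 0.31) and Slc2a1 (-1.05, 0.1 to 0.15), without 489, 814, 818 or 862 by Ldha (-0.77, 0.063 to 0.11), and without 814, 818, 862 or 870 by Mycn (1.32, 0.054 to 0.18). Without 489, 818 or 870 it was lost by Bnip3 (-1.10, 0.063 to 0.1), Ccnd1 (-2.08, 0.051 to 0.062), Etv4 (-1.57, 0.073 to 0.083) and P4ha2 (-0.90, 0.091 to 0.13). Nes (-1.21, 0.072 to 0.16) lost it without 489, 814 or 862, Insm1 (1.20, 0.053 to 0.063) without 814, 818 or 870, and Angpt2 (-1.40, 0.071 to 0.13) without 814, 862 or 870. Bhlhe40 (-1.07, 0.056 to 0.074) lost it without 489 or 814, Clu (0.87, 0.065 to 0.08) without 814 or 818, and Insig1 (-1.05, 0.09 to 0.092) without 814 or 870. Single mice decided Egr1 (-1.30, 0.072 without 818), Gm10800 (2.68, 0.11 without 862), Hk2 (-1.77, 0.051 without 870) and St6galnac5 (-2.56, 0.055 without 870). With the 12 arrays of days 0 and 1 alone, 12 of the 31 were not called (adjusted p of 0.051 to 0.16). Irf9 was not called with array medians aligned (0.053), nor Tubb3 with 16 added before the log (0.056).

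Probe sets outside the comparison moved too. Of 2980 probe sets that carry several symbols 646 were called between the days in the same fit (21.7%), and of 3138 with no symbol 298 were called (9.5%), against 24.9% of those with 1 symbol. With several symbols 177 were higher and 469 lower on day 1, and with none 174 were higher and 124 lower.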

How the results depend on the processing

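Between 5328 and 6227 genes were called between day 1 and day 0 under the 9 alternatives that kept all mice, against 5363, and 3554 to 3768 when 1 mouse was left out. Of these, 1629 to 1722 were higher and 1907 to 2071 lower on day 1. For the difference between genotypes 159 to 1451 genes passed when 1 mouse was left out, with 66 to 642 more positive and 93 to 809 more negative in wild-type cultures. With the mouse as a block 1031 passed (546 and 485), and with the 12 arrays of days 0 and 1 alone 297 (140 and 157). Of the 145 named and called genes 124 kept the call under all 12 alternatives, and 144 did under the 9 with all mice, where Il17rd was the exception. None of the 169 named genes changed sign with a call. The blocked fit took away no call of a named gene. Shifting all arrays to the same median moved the median change of all genes to -0.025, against 0.016, and gave 2158 higher and 3257 lower genes, against 2455 and 2908. Mice whose omission ended a call of a named gene, or moved a count of list members by over 1.5 times, are named beside the values; the cause was not tested. In the simulated data 8% of 1.25-fold changes were recovered, but far fewer genes were called there than in the real data. How many small changes were missed in the real data was not tested.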

Other observations

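Genes of other groups also changed between the days. Plk2, a kinase among the p53 targets, had 214, 192 and 177 on day 1, against 674, 637 and 626 on day 0 (-1.74 ± 0.22, adjusted p = 4.1e-06), and Bhlhe40, a repressor of the clock that also answers to low oxygen, fell by 1.54 ± 0.14. Prrx1, a homeobox factor of mesenchyme that is also found in neural progenitors, had 345, 421 and 361 on day 1, against 1039, 1034 and 1026 on day 0 (-1.47 ± 0.14, adjusted p = 1.6e-07). Of the 11 fibroblast and meningeal genes, to which it belongs, 2 were lower and 1 higher, with a median of 0.013. The others were Twist1 (-0.83 ± 0.24), not called without mouse 818 (adjusted p = 0.075) or 870 (0.1), and Pdgfrl (0.44 ± 0.14), not called without any 1 of the mice (adjusted p of 0.071 to 0.15). Cd44, a receptor for hyaluronan, fell by 0.86 ± 0.13. The 2 Wnt ligands of the list that passed the test went opposite ways, with Wnt5a at 0.91 ± 0.14 and Wnt7a at -0.85 ± 0.15. Nrxn3, a presynaptic adhesion protein, had 276, 176 and 208 on day 1, against 48.7, 54.5 and 49.9 on day 0 (2.08 ± 0.30, adjusted p = 2e-05). Clu, the chaperone clusterin of astrocytes, rose by 1.32 ± 0.12. Of the cilium genes, the dynein light chain Dynlrb2 rose by 1.66 ± 0.30, while Ccdc153 was at -0.04 ± 0.20.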
